A study of Mus musculus with 66 samples.

Results

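The effect of cocaine on gene expression in the nucleus accumbens (NAcc) was examined at ZT15, 12 h after a single injection, by comparing 3 libraries of cocaine-treated WT mice with 3 libraries of saline-treated WT mice. The comparison covered every gene that reached 1 FPKM (fragments per kilobase of transcript, scaled to the mapped fragments of the library) in at least 1 of these 6 libraries, which were 13762 of the 24138 genes listed. Both groups were WT mice, labelled C57BL/6 and given as adult males on a C57BL/6J background in the methods of the study, kept under a light-dark cycle, and received either saline or 20 mg/kg cocaine at ZT3. ZT counts hours from lights on, so ZT15 lies in the early dark phase, when mice are active. The series holds 66 libraries from WT mice and from iMSN-D2RKO mice, in which a Cre recombinase driven by the D1R promoter deletes floxed D2R in medium spiny neurons of the indirect pathway. The labels do not say whether a library stems from 1 animal or from a pool, so the p-values measure the spread between these libraries.

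Cocaine blocks the dopamine transporter and thereby raises dopamine in the NAcc. Most neurons there are medium spiny neurons, which carry D1R in the direct and D2R in the indirect pathway. Strong activity of these neurons switches on early-response genes, which code for transcription factors of the Fos, Egr and Nr4a families and for synaptic proteins such as Arc, together with phosphatases of the Dusp family that shut down MAP kinase signaling again. These transcripts usually peak soon after a stimulus and decay within hours.

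Transcripts of spiny neurons were abundant in all 6 libraries. Penk, the enkephalin precursor of the indirect pathway, was at 1454, 1047 and 1117 FPKM in saline and at 1661, 1000.2 and 822 FPKM in cocaine, and Drd2 was at 118 to 129 FPKM in saline and 111 to 239.6 FPKM in cocaine. Markers that define the striatum were thus abundant in every library. The labels give the tissue as ventral striatum.

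One library stood apart from the rest. On the log2(FPKM + 1) scale, cocaine replicate 3 correlated with the other 5 libraries at 0.882 to 0.91 across 13762 genes, whereas those 5 correlated with each other at 0.974 to 0.986. Genes are not independent replicates, and these correlations are given as a description. In cocaine replicate 3, Malat1, a nuclear long non-coding RNA, was at 2032 FPKM against 46.0 to 73.1 FPKM in the other 5 and 28.5 to 139 FPKM in the 60 other libraries of the series. Rmrp, the RNA of a nuclear RNase, was at 179 FPKM against 3.44 to 9.96 FPKM. Levels in this library also followed transcript length. The shortest quartile of transcripts, of 80 to 2249 bases, lay at a median of -0.61 (log2) against the mean of the other 5 libraries, and the longest quartile, of 4968 bases and more, at 0.60. In the other 5 libraries no quartile departed by more than 0.17 from the mean of the remaining ones. The longest quartile lay above that mean in the 3 saline libraries, by 0.03 to 0.12, and below it in cocaine replicates 1 and 2, by 0.05 and 0.17. The part of these shifts in any result was not tested, and values without cocaine replicate 3 are given beside those with it for the main results.

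**Figure D1:**
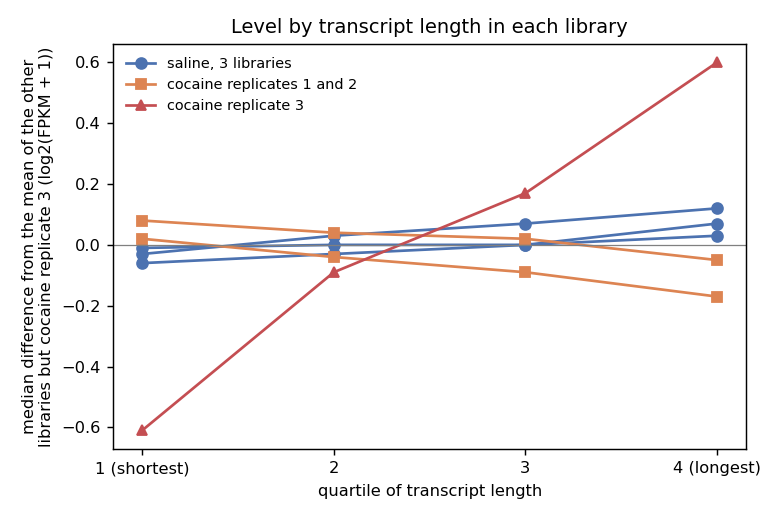
Median difference of each library from the mean of the other libraries, cocaine replicate 3 left out of that mean, on the log2(FPKM + 1) scale (y axis) for genes in 4 quartiles of transcript length (x axis), over 8985 genes with a mean of at least 5 FPKM. Cocaine replicate 3 runs from -0.61 in the shortest to 0.60 in the longest quartile, whereas the other 5 libraries stay within 0.17 of 0.

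Few differences in level between cocaine and saline exceeded the spread shared by all 66 libraries. In a limma fit of all 66 libraries, 1 gene of 13762 (0.00727%) passed a Benjamini-Hochberg adjusted p of 0.05, and without cocaine replicate 3 no gene of 13410 did. At an unadjusted p under 0.05, 551 genes (4.00%) were higher and 416 (3.02%) lower in cocaine. Without cocaine replicate 3 these counts were 91 (0.679%) and 103 (0.768%), and 62 and 59 genes met this level in both fits in the same direction. The spread in the common fit is shared with 60 other libraries and is not that of the 2 groups alone. Without cocaine replicate 3, the SE of Nr4a1 was 0.34 in the common fit and 0.12 in the 5 remaining libraries alone. For Dlx1, a neuroblast marker, these were 0.54 and 0.56. The low counts of the common fit thus depend on that shared spread. In a fit of the 5 remaining WT ZT15 libraries alone, 666 genes (4.97%) were higher and 1143 (8.52%) lower at an unadjusted p under 0.05, and 2 genes, Rpl29 and Abhd14a, passed the adjusted threshold. These are described with the genes of chromosome 9. As a description of the values themselves, 713 genes (5.18%) were higher in each cocaine library than in any saline library, and 1002 genes (7.28%) were lower. Without cocaine replicate 3, the same held for 1708 (12.4%) and 2804 genes (20.4%).

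The gene that passed in the common fit was Mir1192, annotated as the precursor of a microRNA. It is a gene of 121 bases at chr19:23149431-23149551 on the plus strand of GRCm38, within an intron of Klf9, which codes for a hormone-regulated transcription factor and lies on the same strand. The mature microRNA of RefSeq (chr19:23149450-23149471) is shown because no other gene passed, with its seed, bases 2 to 8, in capitals.
mmu-miR-1192: aAACAAACaaacagaccaaauu
Mir1192 was listed at 0 FPKM in the 3 saline libraries and in cocaine replicate 1, and at 59.3 and 239 FPKM in cocaine replicates 2 and 3. The groups thus overlapped at 0, and all 60 other libraries of the series were also at 0. The fitted difference was 4.61 ± 0.69 (log2, SE; adjusted p = 0.00034), and without cocaine replicate 3 it was 2.96 with an adjusted p of 0.051. The spread in this fit is shared with the 60 other libraries, all at 0, so the SE and p do not measure the spread of the 2 groups compared. In the 5 libraries alone the difference of 2.96 had an SE of 1.55 (unadjusted p = 0.10 by limma). Klf9, whose intron holds the gene, was at 61.5 to 73.0 FPKM in saline and at 51.0 to 63.6 FPKM in cocaine (log2 difference -0.18, unadjusted p = 0.39). Poly(A) libraries of this kind do not measure the mature microRNA, and a gene this short rests on few fragments.

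A part of the early-response genes was higher in every cocaine library than in any saline library. The 4 lists of Fos and Jun factors, Egr and Nr4a factors, other early-response genes and MAP kinase feedback genes held 43 genes tested. Of these, 11 (25.6%) were higher in each cocaine library than in any saline library and none was lower, against 5.18% and 7.28% of all genes tested. Their median difference was 0.25 (log2) against 0.01 for all genes, with 35 of 43 means higher in cocaine. Without cocaine replicate 3 the median was 0.16 against -0.02. In that case 16 genes (37.2%) lay entirely above saline and 1 below, against 12.4% and 20.4% of all genes. In the fit of those 5 libraries alone, 15 genes (34.9%) were higher at an unadjusted p under 0.05 and none lower, against 4.97% and 8.52% of all genes. In the common fit 4 genes (9.3%) were higher at that level, against 4.00% of all genes. Without cocaine replicate 3 there were 3 (6.98%), against 0.679%, and none passed the adjusted threshold in either case.

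The promoters of 4 of the 11 genes are shown because they hold a match to the cAMP response element (CRE), which is known to drive such genes after a rise in dopamine. Each run gives the 250 bases before the start annotated by RefSeq, 5′ to 3′ on the strand of the gene, in GRCm38.p6. Capitals mark the CRE core TGACG on either strand, and the full element TGACGTCA, which holds 2 overlapping cores. The windows are chr15:101266596-101266845, plus strand for Nr4a1, chr17:26508473-26508722, minus strand for Dusp1, chr12:85473640-85473889, plus strand for Fos and chr6:85513590-85513839, minus strand for Egr4.
Nr4a1: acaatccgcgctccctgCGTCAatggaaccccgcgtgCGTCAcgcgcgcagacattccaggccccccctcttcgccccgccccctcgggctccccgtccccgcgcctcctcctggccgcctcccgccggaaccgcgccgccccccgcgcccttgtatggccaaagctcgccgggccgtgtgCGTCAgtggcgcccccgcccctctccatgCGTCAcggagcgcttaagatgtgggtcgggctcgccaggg
Dusp1: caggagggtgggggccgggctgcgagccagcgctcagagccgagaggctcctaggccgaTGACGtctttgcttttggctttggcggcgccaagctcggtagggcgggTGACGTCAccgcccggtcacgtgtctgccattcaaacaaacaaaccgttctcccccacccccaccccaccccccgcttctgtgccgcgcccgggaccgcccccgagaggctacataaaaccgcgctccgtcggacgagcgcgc
Fos: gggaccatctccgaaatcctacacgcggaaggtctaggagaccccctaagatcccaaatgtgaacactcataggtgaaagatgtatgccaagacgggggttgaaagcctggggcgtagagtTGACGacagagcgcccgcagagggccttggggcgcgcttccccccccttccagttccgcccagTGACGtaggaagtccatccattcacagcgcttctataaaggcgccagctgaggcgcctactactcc
Egr4: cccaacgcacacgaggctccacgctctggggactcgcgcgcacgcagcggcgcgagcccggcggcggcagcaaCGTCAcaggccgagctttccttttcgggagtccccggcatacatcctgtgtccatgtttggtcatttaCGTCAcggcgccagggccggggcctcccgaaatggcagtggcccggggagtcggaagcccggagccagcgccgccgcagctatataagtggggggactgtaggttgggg
Nr4a1 held 4 cores, Egr4 and Fos 2 each, and Dusp1 a full element from 143 to 136 bases before the start and a further core. Of the 8 genes with a window in the table, Egr2 had a core in 3 of its 5 windows, and Fosl2, Dusp6 and Dusp7 had none. The core occurs in 17.8% and the full element in 1.55% of the 32851 windows of this length in the table. A match of letters is a description and says nothing of binding.

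Among the transcription factors, Nr4a1, an orphan nuclear receptor gene induced by activity, differed most. It was at 39.4, 45.8 and 35.0 FPKM in the saline libraries and at 72, 73.9 and 102 FPKM in the cocaine libraries. The groups were well apart, and cocaine replicate 3 was the highest. The difference was 1.01 ± 0.30 (log2, SE; unadjusted p = 0.0016, adjusted p = 0.29), and 0.86 (unadjusted p = 0.015) without cocaine replicate 3. Egr2, a zinc finger factor, was at 4.85, 4.47 and 3.50 FPKM in saline and at 7.12, 8.08 and 10.5 FPKM in cocaine, a difference of 0.85 (unadjusted p = 0.072), and 0.71 (unadjusted p = 0.18) without cocaine replicate 3. Its relative Egr4 was at 36.3, 37.3 and 34.2 FPKM in saline and at 50.9, 49.1 and 68.6 FPKM in cocaine (0.62, unadjusted p = 0.18, and 0.47 without that library). The 2 groups did not overlap for either gene. Fos, the founding AP-1 subunit, was at 3.93 to 4.97 FPKM in saline and at 5.69, 11.9 and 8.01 FPKM in cocaine, and the AP-1 subunit Fosl2 at 5.27 to 5.69 FPKM against 7.66, 6.35 and 9.37 FPKM. Without cocaine replicate 3 the difference was 0.81 for Fos and 0.29 for Fosl2.

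Arc, whose protein regulates AMPA receptors at the synapse, was at 38.0, 45.2 and 40.5 FPKM in saline and at 57.8, 79.1 and 100 FPKM in cocaine. All 3 cocaine libraries thus lay above saline, and they spread more widely (SD 21.1 against 3.66 FPKM, n = 3 each). The difference was 0.89 ± 0.42 (log2, SE; unadjusted p = 0.04), and 0.70 (unadjusted p = 0.14) without cocaine replicate 3. Sik1, a kinase that restrains CREB co-activators, was at 4.56, 4.74 and 4.71 FPKM in saline and at 6.03, 8.46 and 7.38 FPKM in cocaine, a difference of 0.54 (unadjusted p = 0.0089) that was 0.52 (unadjusted p = 0.022) without cocaine replicate 3. Trib1, a pseudokinase gene of MAP kinase signaling, was at 2.87 to 3.13 FPKM in saline and 3.65 to 3.83 FPKM in cocaine (0.25, and 0.26 without cocaine replicate 3).

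Of 12 MAP kinase feedback genes, 3 phosphatase genes were higher in each cocaine library and none lower, against 5.18% and 7.28% of all genes. The median of the list was 0.07, or -0.01 without cocaine replicate 3. Dusp1, which inactivates JNK, p38 and ERK, was at 15.7, 15 and 15.4 FPKM in saline and at 20.3, 24 and 20.1 FPKM in cocaine (0.45, unadjusted p = 0.097, and 0.49 without cocaine replicate 3). Dusp6, a cytosolic ERK phosphatase, was at 13.2 to 16.6 FPKM in saline and 17.9 to 22.6 FPKM in cocaine (0.35, and 0.41 without that library). Dusp7, another ERK phosphatase, was at 15.5, 16.8 and 16.4 FPKM in saline and at 27.4, 26.2 and 31.6 FPKM in cocaine (0.77, unadjusted p = 0.0036, and 0.69 without that library), but it lies on chromosome 9 next to Rpl29, in a stretch described below. Dusp4, Dusp5 and Dusp14 overlapped between the groups, with differences of -0.02, 0.05 and -0.11.

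Other members of the lists did not separate the groups. Egr1 was at 116 to 143 FPKM in saline and at 146, 119.7 and 248 FPKM in cocaine, and Npas4, an activity-dependent factor of neurons, at 3.95 to 8.06 FPKM in saline and at 5.74, 6.05 and 30 FPKM in cocaine. For both genes the only library clearly above saline was cocaine replicate 3. Fosb was at 5.04 to 6.22 FPKM in saline and 4.45 to 5.79 FPKM in cocaine. Among 16 late activity genes, the plasticity genes that follow the early factors, 1 was higher in each cocaine library and none lower. The shares over all genes were 5.18% and 7.28%. The median difference of the late activity genes was -0.01. Bdnf, the neurotrophin of that list, was at 0.426 to 1.29 FPKM in saline and 0.212 to 1.14 FPKM in cocaine.

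**Figure D2:**
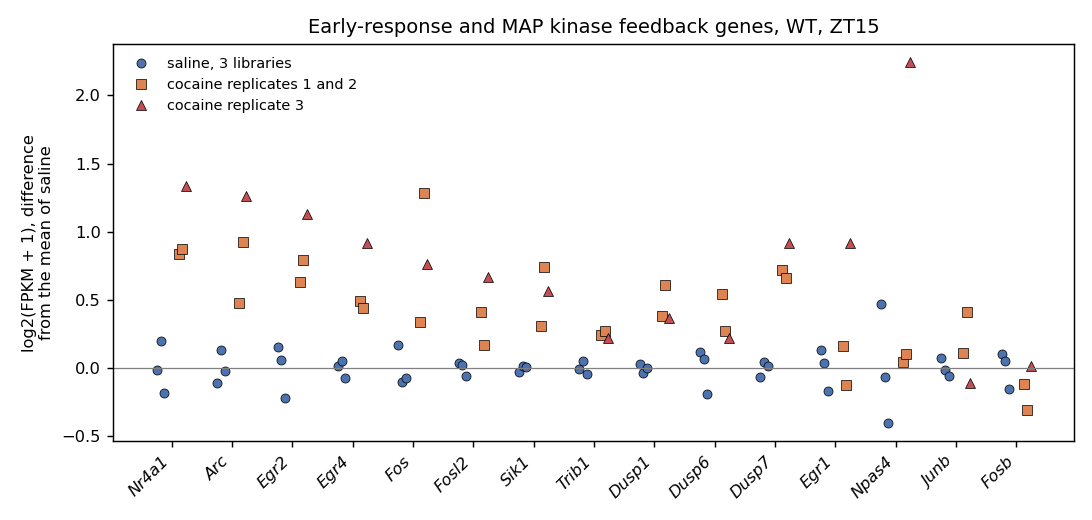
Difference of each library from the mean of the 3 saline libraries on the log2(FPKM + 1) scale (y axis) for 15 early-response and MAP kinase feedback genes (x axis). In the first 11 genes, Nr4a1 to Dusp7, all cocaine libraries lie above all saline libraries, and in the last 4, Egr1 to Fosb, they do not.

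Among glucocorticoid-induced genes, which respond to corticosterone, 8 of 18 were higher and 3 lower in cocaine replicates 1 and 2 than in any saline library, against 12.4% and 20.4% of all genes. Of the 18 genes none differed at an unadjusted p under 0.05 in the common fit and none kept the 3 cocaine libraries apart from saline. In the 5 libraries alone, 8 were higher and 1 lower at that level, against 4.97% and 8.52% of all genes. Mt2, a metallothionein, was at 243, 294 and 352 FPKM in saline and at 435, 592 and 94.3 FPKM in cocaine. Ddit4, an mTOR inhibitor, was at 28.4 to 32.3 FPKM in saline and at 45, 39.9 and 22.1 FPKM in cocaine, and Sgk1, a kinase of ion transport, at 33.9 to 53.1 FPKM against 69.2, 57.6 and 36.5 FPKM. In each of these, replicates 1 and 2 lay above and replicate 3 near or below saline. Fkbp5, a co-chaperone of the glucocorticoid receptor, was at 15.1 to 18.9 FPKM in saline and 13.7 to 19 FPKM in cocaine, and Zbtb16, a zinc finger gene on chromosome 9, was at 2.40 to 5.52 FPKM in saline and at 1.98, 1.41 and 3.43 FPKM in cocaine, with a difference of -0.87 (unadjusted p = 0.016) without cocaine replicate 3.

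In the common fit, none of the clock genes differed at an unadjusted p under 0.05 once cocaine replicate 3 was left out. The clock is a feedback loop in which CLOCK or NPAS2 with BMAL1 (gene Arntl) drives Period and cryptochrome genes that repress it. Of 23 genes in the 4 clock lists, Per1 and Per3 were higher at an unadjusted p under 0.05 with all libraries, against 4.00% of all genes. Per1 was at 41.9 to 47.2 FPKM in saline and at 51.6, 43.0 and 104 FPKM in cocaine, a difference of 0.46 that was 0.09 (unadjusted p = 0.67) without cocaine replicate 3. Per3 was at 13.2 to 14.3 FPKM in saline and at 13.8, 12.7 and 32.1 FPKM in cocaine, a difference of 0.36 that became -0.05. Per2 was at 20.5 to 26.9 FPKM in saline and at 21.4, 13.3 and 48.0 FPKM in cocaine, a difference of 0.02 that became -0.47 (unadjusted p = 0.084). For all 3 genes the highest value was that of cocaine replicate 3. Nr1d1, which codes for the repressor REV-ERBα, was the 1 clock gene whose groups did not overlap, at 60.8, 67.7 and 69.6 FPKM in saline and 79.1, 76.3 and 95.2 FPKM in cocaine (0.33, unadjusted p = 0.075, and 0.23 without cocaine replicate 3). Over all genes, 5.18% were higher without overlap. In the 5 libraries alone Nr1d1 was higher (unadjusted p = 0.033) and 1 clock activator gene was lower at an unadjusted p under 0.05. Among all genes, 4.97% were higher and 8.52% lower at that level in that fit. Arntl was at 10.2 to 11.6 FPKM in saline and 9.21 to 13.6 FPKM in cocaine, and Dbp, an output factor, at 141 to 161 FPKM and 151 to 221 FPKM.

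In the common fit with all libraries, dopamine receptors and identity genes of spiny neurons did not differ at an unadjusted p under 0.05. Of 29 identity genes, Sp9 was higher in each cocaine library and none was lower, against 5.18% and 7.28% of all genes. The median difference was 0.11, or -0.03 without cocaine replicate 3. Drd1 was at 89.3 to 106 FPKM in saline and at 114, 72.7 and 112 FPKM in cocaine. Drd3, a receptor of the ventral striatum, was at 3.15, 3.76 and 4.90 FPKM in saline and at 2.50, 1.67 and 6.79 FPKM in cocaine, with a difference of -0.68 (unadjusted p = 0.049) when cocaine replicate 3 was left out. The peptide genes Pdyn, Tac1 and Penk overlapped between the groups. Cartpt, a peptide of accumbens neurons, was at 13.4 to 27.8 FPKM in saline and at 7.94, 20.2 and 2.1 FPKM in cocaine.

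The study followed Adora2a, Kcnd1 and Gabrd as genes tied to the nuclear receptor PPARγ. Adora2a, the adenosine receptor of the indirect pathway, was at 184, 162 and 183 FPKM in saline and at 277, 178 and 188 FPKM in cocaine (0.25, unadjusted p = 0.49, and 0.33 without cocaine replicate 3). Gabrd, a GABA-A receptor subunit, was at 89.0, 88.4 and 95.1 FPKM in saline and at 125, 87.8 and 70.5 FPKM in cocaine. Kcnd1, a potassium channel subunit, was at 3.74 to 4.56 FPKM in saline and at 4.35, 3.90 and 9.18 FPKM in cocaine, a difference of 0.32 (unadjusted p = 0.04) that was -0.01 (unadjusted p = 0.94) without cocaine replicate 3. A separate list of PPAR target genes is not the study's own set, which was defined by rhythm and binding sites. Of its 23 genes tested, 1 was higher and 3 were lower at an unadjusted p under 0.05, against 4.00% and 3.02% of all genes. In the common fit without that library none differed at this level. In the 5 libraries alone none was higher and 3 were lower, against 4.97% and 8.52% of all genes.

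Some receptor genes lay below saline in cocaine replicates 1 and 2 and above it in replicate 3. Grin2b, an NMDA receptor subunit whose values led to its choice, was at 15.8, 16.3 and 13.8 FPKM in saline, at 7.91 and 6.95 FPKM in cocaine replicates 1 and 2 and at 131 FPKM in replicate 3. Of 22 glutamate receptor genes, 1 was lower in all 3 cocaine libraries and 10 were lower in replicates 1 and 2, against 7.28% and 20.4% of all genes. Oprm1, the µ-opioid receptor, was at 4.61 to 5.80 FPKM in saline and at 2.63, 2.74 and 10.3 FPKM in cocaine.

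Lists of ribosomal, respiratory and proteasome genes lay below saline mainly through cocaine replicate 3. The median difference of 63 cytosolic ribosomal protein genes was -0.54. Of these, 10 were lower and 1 higher at an unadjusted p under 0.05, against 3.02% and 4.00% of all genes. When cocaine replicate 3 was left out, the median was 0.03 and none was lower in the common fit. In the 5 libraries alone, 2 were higher and 2 lower, against 4.97% and 8.52% of all genes. For 77 nuclear genes of oxidative phosphorylation the median difference was -0.31, and 0.16 without cocaine replicate 3. In the 5 libraries alone, 15 of these 77 genes were higher and 2 lower at an unadjusted p under 0.05, against 4.97% and 8.52% of all genes. Uqcrh, a complex III subunit, was at 351 to 414 FPKM in saline and at 389, 323 and 95.3 FPKM in cocaine, and 36 proteasome subunits had a median of -0.25 that became 0.05. Splicing factors of the SR and hnRNP families had a median of -0.12 with and without that library over 26 genes. Of these, 7 were entirely below saline, against 7.28% of all genes. Tra2b, a splicing activator, was at 18.7 to 19.5 FPKM in saline and at 15.4, 14.6 and 4.51 FPKM in cocaine (-0.85, unadjusted p = 0.0036), and -0.33 (unadjusted p = 0.21) without cocaine replicate 3.

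**Figure D3:**
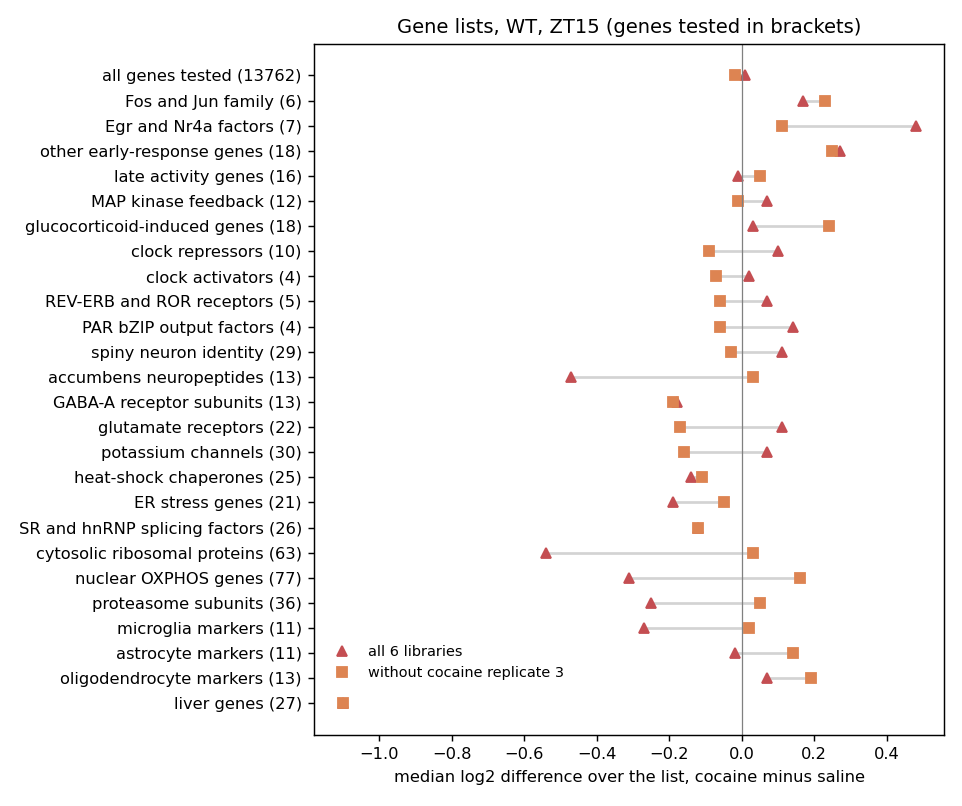
Median log2 difference between cocaine and saline (x axis) over the genes of each list (y axis, number tested in brackets), with all 6 libraries and without cocaine replicate 3. The lists of ribosomal, respiratory and proteasome genes lie below 0 with all libraries and near or above 0 without cocaine replicate 3, and the liver genes lie at -1.10 in both. The liver list was written after its values were seen, and 22 of its 27 genes passed the filter only through saline libraries.

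Among the other genes with a mean of at least 5 FPKM and no overlap between the groups, some kept an unadjusted p under 0.05 without cocaine replicate 3 and others did not. Mfsd2a, a lipid transporter of the blood-brain barrier, was at 15.7, 17.0 and 18.3 FPKM in saline and at 28.6, 23.9 and 21 FPKM in cocaine (0.49, unadjusted p = 0.0017), and 0.60 (unadjusted p = 0.00064) without that library. Prom1, the membrane glycoprotein prominin, was at 5.03 to 5.07 FPKM in saline and at 7.38, 6.34 and 7.71 FPKM in cocaine (0.43, unadjusted p = 0.0016, and 0.38 without that library). Fcgr3, an Fc receptor gene of microglia and macrophages, was at 9.71, 10.6 and 9.45 FPKM in saline and at 6.44, 6.26 and 2.47 FPKM in cocaine. It had the smallest p of the genes that were lower, at a difference of -0.93 ± 0.20 (log2, SE; unadjusted p = 2.4e-05, adjusted p = 0.094), and -0.57 (unadjusted p = 0.0043) without cocaine replicate 3. Fcer1g, the γ chain shared by Fc receptors, was at 14.7 to 17.8 FPKM in saline and at 10.8, 12 and 2.15 FPKM in cocaine (-1.16, unadjusted p = 0.00028), and its difference was -0.51 (unadjusted p = 0.054) without cocaine replicate 3. The lysozyme gene Lyz2 was at 7.44 to 9.16 FPKM in saline and 3.86 to 5.58 FPKM in cocaine (-0.66, and -0.53 without that library). Col4a2, a basement membrane collagen, went from 0.54 to 0.18 and the ribosomal gene Rpl15 from -0.56 to -0.13 when that library was left out. The microglia markers as a list, 11 genes, summed to 362 to 429.7 FPKM in saline and to 428, 395 and 227 FPKM in cocaine. Of these 11, Aif1 was lower in each cocaine library, against 7.28% of all genes. Csf1r was at a mean of 32.0 FPKM in saline and at 29.9 to 35.0 FPKM in cocaine. In bulk tissue, fewer cells of a type and less RNA per cell cannot be told apart.

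Over the 14 lists of other cell types and neighbouring regions, 131 genes were tested. Of these, 1 was higher and 3 were lower at an unadjusted p under 0.05, against 4.00% and 3.02% of all genes. Markers of regions beside the NAcc varied within groups. The 8 ependymal markers summed to 13.0 to 46.7 FPKM in saline and to 15.5, 118 and 7.21 FPKM in cocaine, and the 7 hypothalamic and preoptic markers to 14.1 to 22.1 FPKM and 3.51, 34.5 and 2.51 FPKM. Cocaine replicate 2 held the highest sum in both lists. The 11 cortical excitatory markers summed to 172 to 283 FPKM in saline and to 117 to 209 FPKM in cocaine.

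Several transcripts typical of liver were present in the 3 saline libraries and at or near 0 in the cocaine libraries. Alb, serum albumin, was at 12.7, 15.7 and 4.17 FPKM in saline and at 0.0206, 0.0422 and 0.04 FPKM in cocaine. Fabp1, the fatty acid-binding protein of hepatocytes, was at 2.98, 5.23 and 2.08 FPKM in saline and was listed at 0 in cocaine. Hp, haptoglobin, was at 5.54, 2.18 and 1.21 FPKM in saline and at 0.065, 0.759 and 0.0552 FPKM in cocaine (-1.51, unadjusted p = 2.7e-05). The groups were apart for all 3 genes, and by a wide margin for Alb and Fabp1. A list of 44 liver genes, written after these values were seen, held 27 genes tested, of which 22 were lower in each cocaine library and none higher, and 8 were listed at 0 in all 3 of them. Of the 27, 22 were under 1 FPKM in all 3 cocaine libraries and so passed the filter only through the saline libraries. The direction of these counts was thus in large part set by the filter. Members that the brain also expresses were not near 0, such as Rbp4, a retinol carrier, at 32.0, 18.6 and 9.16 FPKM in cocaine. The same 44 genes summed to 66.6 to 121 FPKM in the saline libraries and to 49.3, 46.3 and 22.5 FPKM in the cocaine libraries, and in the 60 other libraries of the series to 32.0 to 603 FPKM with a median of 44.55 FPKM. Among those 60, 5 libraries reached the lowest of the saline sums, and the highest was WT ZT19 cocaine replicate 1, in which Alb was at 178 FPKM. The source of these transcripts was not tested.

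**Figure D4:**
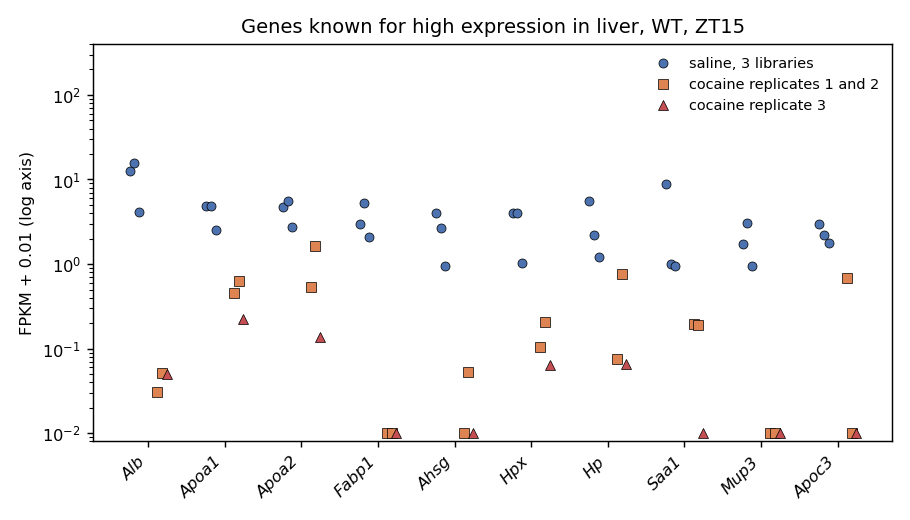
FPKM with 0.01 added (y axis, log scale) of 10 genes known for high expression in liver (x axis) in each of the 6 WT ZT15 libraries. For each of the 10 genes, the 3 saline libraries lie above the 3 cocaine libraries, and Fabp1 and Mup3 are listed at 0 in all cocaine libraries.

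Genes that differed with and without cocaine replicate 3 were more frequent on chromosome 9 than on any other. The count was made after the positions of the leading genes were seen and carries no test. With an unadjusted p under 0.05 in both fits, the same direction and no overlap between the groups, 24 of 762 genes tested on chromosome 9 qualified (3.15%), against 82 genes on the other chromosomes (0.67%), where the share ran from 0 to 1.31%. Among the 24, 9 lay at 40 to 48 Mb, where 67 genes were tested, and 7 at 103 to 108 Mb, where 61 were tested. Drd2 lies between these stretches, at chr9:49340627-49408177. Whether the mice differ in their chromosome 9 haplotype was not tested, and a difference of that kind cannot be told apart from cocaine in these 6 libraries. The liver genes Apoa1, Apoc3 and Apoa4 account for 3 of the 9. Some of the 24 reached 1 FPKM in only 1 of the 2 groups and so entered the count through that group. Rpl29, Bfsp2 and Col6a4 did so only in cocaine, and Apoa1, Apoc3 and Apoa4 only in saline.

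In the distal stretch, Rpl29, a ribosomal protein gene at chr9:106429454-106431568, was at 0.121, 0.222 and 0.133 FPKM in saline and at 44.8, 75.1 and 19 FPKM in cocaine. Bfsp2, known as a filament gene of the lens, was at 0.365 to 0.407 FPKM in saline and at 3.96, 6.04 and 2.16 FPKM in cocaine. Abhd14a, a hydrolase gene beside Rpl29, was at 7.45 to 7.61 FPKM in saline and at 23.5, 31.4 and 19.1 FPKM in cocaine. None of these groups overlapped. Rpl29 and Bfsp2 were under 1 FPKM in every saline library and passed the filter only through the cocaine libraries. In the fit of the 5 libraries alone, Rpl29 and Abhd14a were higher with adjusted p = 0.0018 and 0.048, whereas in the common fit their adjusted p were 0.29 and 0.38. Col6a4, a collagen chain, was at 0.0849 to 0.119 FPKM in saline and at 1.34 to 1.39 FPKM in cocaine, and Dusp7 and Poc1a lie between it and Rpl29.

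Low levels of Rpl29 and Bfsp2 also occurred in other groups of the series, of both treatments. Whether they followed treatment was not tested. Rpl29 was under 1 FPKM in 19 of 66 libraries, and Bfsp2 was under 1 FPKM in the same 19. They came from 11 of 22 groups, 12 from WT and 7 from iMSN-D2RKO mice, 12 from saline and 7 from cocaine groups. Only WT ZT15 saline and 1 further group, WT ZT19 cocaine, had all 3 libraries among them. Rpl29 was at most 0.493 FPKM in these 19 libraries and at least 1.06 FPKM in the others.

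In the proximal stretch, Hspa8, the constitutive Hsc70 chaperone gene, was at 53.1, 47.6 and 44.1 FPKM in saline and at 171, 128 and 113 FPKM in cocaine (1.47, unadjusted p = 0.0065), and 1.60 (unadjusted p = 0.0086) without cocaine replicate 3. Of 25 chaperone genes tested, 1, Hspa8, was higher in each cocaine library and 2 were lower, against 5.18% and 7.28% of all genes. The level of Hspa8 ran from 47.3 to 437 FPKM in the 60 other libraries, with a median of 165 FPKM. Of all 66 libraries, 62 lay above the highest of the 3 saline values, so the saline group was low for the series. Rnf26, a ubiquitin ligase gene, was at 5.61, 6.13 and 5.42 FPKM in saline and at 12.7, 11.5 and 11.9 FPKM in cocaine, with a difference of 0.95 (unadjusted p = 6e-05, adjusted p = 0.14) and 0.96 without cocaine replicate 3. Slc37a4, the glucose-6-phosphate transporter, was lower, at 17.4, 19.3 and 19.5 FPKM in saline and 10.7, 10.2 and 9.50 FPKM in cocaine. Rnf26 overlaps the protein-coding gene Gm49380 on the same strand, and Mfrp and C1qtnf5 on the opposite strand. Rpl29 and Hspa8 have processed copies elsewhere in the genome. The level assigned to Rnf26, Rpl29 and Hspa8 is therefore uncertain. The same holds for Tmem181b-ps, a pseudogene on chromosome 17, which was at 20.4 to 23.7 FPKM in saline and at 59.0, 46.5 and 206 FPKM in cocaine.

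**Figure D5:**
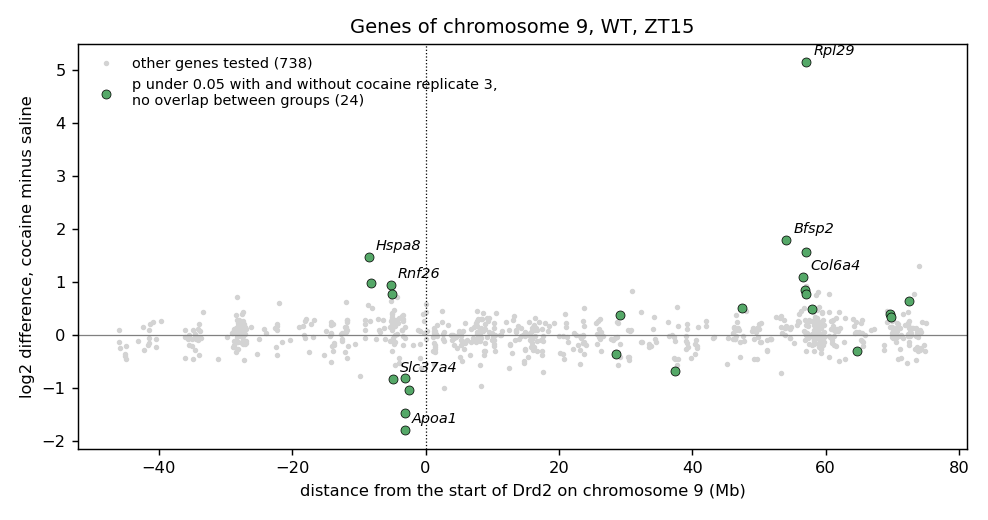
Log2 difference between cocaine and saline (y axis) of 762 genes on chromosome 9 by distance from the start of Drd2 (x axis, Mb). The 24 genes with an unadjusted p under 0.05 with and without cocaine replicate 3 and no overlap between the groups are marked, and Rpl29 lies highest at 5.15.

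Whether the cocaine effect at ZT15 differed between the genotypes was tested as the difference of the 2 effects. No gene of 14019 passed an adjusted p of 0.05 by limma, and 475 (3.39%) had an unadjusted p under 0.05, or 169 of 13767 (1.23%) without cocaine replicate 3 of WT. Leaving out 1 iMSN-D2RKO library gave 329 to 828 genes at this level, the most without saline replicate 2, and none passed the adjusted threshold. Among genes with a mean of at least 5 FPKM, the smallest p after Mir1192 were those of Fcgr3, Apcdd1, Srsf3 and Zyx. Fcgr3 was at 8.4, 11.5 and 7.02 FPKM in saline and at 10.8, 10.8 and 13.2 FPKM in cocaine of iMSN-D2RKO mice, where it was not lower, and its effect in WT minus that in iMSN-D2RKO was -1.29 ± 0.28 (log2, SE; unadjusted p = 3.3e-05), and -0.93 (unadjusted p = 0.00067) without WT cocaine replicate 3. Apcdd1, a Wnt inhibitor, was at 10.2 to 11.6 FPKM in saline and 11.9 to 15 FPKM in cocaine of WT, and at 11.7 to 12.6 FPKM and 7.27 to 9.71 FPKM in iMSN-D2RKO mice. Of the 43 early-response and MAP kinase genes, 1 had an unadjusted p under 0.05. Nr4a1 was at 70.8, 49.9 and 52.1 FPKM in saline and at 126, 69.1 and 65.9 FPKM in cocaine of iMSN-D2RKO mice, with a difference between the effects of 0.47 (unadjusted p = 0.27), and 0.32 without that library. These values do not show that the genotypes acted alike.

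Whether the effect at ZT15 departed from the mean effect at ZT7, ZT11, ZT19 and ZT23 in WT was tested in the same way. Mir1192 was the 1 gene of 14392 (0.00695%) that passed (4.61, adjusted p = 0.0042), and none passed without cocaine replicate 3, with 742 (5.16%) and 196 genes (1.38%) at an unadjusted p under 0.05. Nr4a1 was at 20.3 ± 2.94 FPKM in saline and 23.8 ± 10.7 in cocaine at ZT7, at 27.4 ± 3.50 and 21.8 ± 8.71 at ZT11, at 40.1 ± 5.43 and 82.5 ± 16.6 at ZT15, at 23.4 ± 0.847 and 71.9 ± 44.0 at ZT19 and at 31.9 ± 8.33 and 79.1 ± 8.37 at ZT23 (SD, n = 3 each). The 2 light-phase times thus lay close to saline and the 3 dark-phase times above it. Arc was at 31.3 ± 2.51 FPKM in saline and 32.2 ± 7.26 in cocaine at ZT7, at 32.1 ± 1.76 and 19.3 ± 1.36 at ZT11, at 28.6 ± 4.01 and 72.2 ± 60.9 at ZT19, where 1 library reached 142 FPKM, and at 37.6 ± 22.9 and 107 ± 22 at ZT23. The effect at ZT15 minus the mean of the other times was 0.39 for Nr4a1 (unadjusted p = 0.26) and 0.40 for Arc (unadjusted p = 0.39), and 0.23 and 0.22 without cocaine replicate 3. Among genes with a mean of at least 5 FPKM, Fcgr3 had the smallest p after Mir1192, at a difference of -0.95 (unadjusted p = 8.9e-05, adjusted p = 0.43), and -0.59 (unadjusted p = 0.0066) without that library.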

How the data were processed

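RNA of NAcc punches from WT and iMSN-D2RKO mice was analysed in 66 libraries of 22 groups of 3, of which 6 form the comparison. The authors prepared stranded poly(A) libraries, aligned single-end reads to mm10 with TopHat and Bowtie and deposited FPKM per gene from Cufflinks and Cuffnorm. The notes of the submitters name CASAVA 1.8.2. The ZT3 libraries are listed in duplicate with identical values and were used once. Read numbers are not given in the sources used here, so the precision rests on the 3 replicates. A gene was kept where any of the libraries compared reached 1 FPKM, and log2(FPKM + 1) was fitted with limma 3.58.1 in R 4.3.3, with 1 mean per group over all 66 libraries, a trend and Benjamini-Hochberg adjustment. Differences on this scale understate those of genes of low FPKM. The test was checked on simulated data with independent noise and the same spread of a gene in all libraries. That check does not cover a library that stands apart, as cocaine replicate 3 does.

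The genes compared and the 45 gene lists were chosen with earlier results of these data known, and 2 lists were added after the values were seen. Lists are described by counts and medians, without a test. The text names members of the lists, genes of the paper, the 15 smallest p in each direction without overlap at a mean of at least 5 FPKM, genes past the adjusted threshold and the 5 smallest p of each difference test. Genes of chromosome 9, Grin2b and the RNAs that mark cocaine replicate 3 were chosen after their values were seen. Positions are those of GENCODE M21 and RefSeq on GRCm38, which is mm10. Promoter windows were matched by symbol for 8 of the 11 early genes, and Arc, Sik1 and Trib1 were not matched. One gene is not reported here.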

Additional observations from a re-analysis of the deposited data

Results flagged for a closer look

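The cocaine effect on Mir1192 at ZT15 in WT differed from its mean effect at ZT7, ZT11, ZT19 and ZT23 by 4.61 (log2, SE 0.77, adjusted p = 0.0042 by limma), which the test of the difference itself singled out. The 2 libraries above 0, at 59.3 and 239 FPKM, were those of cocaine replicates 2 and 3. The 60 libraries outside the comparison were all at 0 and enter the spread used by this test, so its p does not measure the spread between the cocaine libraries.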

How the results depend on the processing

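The count of 1 gene past the adjusted threshold depended on the libraries and on the weights. It was 0 in a fit of the 6 libraries alone, 32 with the 21 WT libraries of ZT3 to ZT15, 4 with gene-by-gene array weights, in which cocaine replicate 3 had a weight of 0.0565 against 0.905 to 3.96 in the other 5, and 33 after values outlying by Dixon's ratio were removed. In 2 alternatives chosen after seeing the data, it was 2 with the 5 libraries alone and 514 with array weights by restricted maximum likelihood, which did not converge. Leaving out 1 library gave 0 to 276 genes, with 0 without cocaine replicate 3, 176 without cocaine replicate 1, 276 without cocaine replicate 2, and 2, 2 and 6 without saline replicates 1, 2 and 3. The cause was not tested. At ZT15, iMSN-D2RKO saline replicate 2 and cocaine replicate 3 also had low gene-by-gene weights, of 0.127 and 0.136. The difference between genotypes gave 0 genes, 34 with gene-by-gene weights, 1564 with the weights that did not converge, 17 without Dixon outliers, and 0 to 2 when 1 library was left out, with 2 without WT cocaine replicate 1. The difference between times gave 1 gene, and 3, 890 and 51 in these 3 alternatives, with 0 to 74 when 1 library was left out, 55 without cocaine replicate 1, 74 without cocaine replicate 2, 0 without cocaine replicate 3 and 2 without saline replicate 3. A pseudocount of 0.1 FPKM, other filters, both rescalings and a fit without trend left the 3 counts as they were. Mir1192 had an adjusted p of 0.91 in the 6 libraries alone, 0.16 with the 33 WT libraries and 0.16 with the 21. Directions turned for Per3 (-0.05) and Kcnd1 (-0.01) without cocaine replicate 3, in both fits, and for Malat1 (-0.15) there and without Dixon outliers. Leaving out 1 library moved Per3 from -0.05 to 0.59, Kcnd1 from -0.01 to 0.52 and Malat1 from -0.15 to 2.56, the highest values being those without cocaine replicate 2. With the replicate number as a block the counts were 1, 0 and 1. Deviations of same-numbered libraries correlated at 0.057, -0.089 and -0.143, and those of unlike-numbered libraries at -0.096 to 0.196. With 3 libraries a group, these values cannot decide whether libraries of the same number share more than that number. The depth of the libraries is unknown, and 3 replicates limit the precision.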
